A study of Mus musculus with 8 samples.

Results

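Cornified envelope and filaggrin-type genes encode the proteins that outer epidermal cells lay down as they turn into the dead, cross-linked squames of the skin surface. They were taken here as every gene whose symbol starts with Lce or Sprr and a digit, together with Lor, Ivl, Flg, Flg2, Hrnr, Rptn, Crnn and Cnfn. In all, 46 such genes were found, 42 of the 26340 genes in the keratinocyte table, 46 of 46036 in the table of plucked skin and 44 of 46048 in the wound table, and 40 genes were in all of them. They comprised 21 Lce genes (14 Lce1, 6 Lce3 and Lce6a), 17 Sprr genes (2 Sprr1, 13 Sprr2, Sprr3 and Sprr4), the 5 filaggrin-type genes Flg, Flg2, Hrnr, Rptn and Crnn, and Lor, Ivl and Cnfn. GENCODE lists 44 of them as protein coding and 2, Sprr2c-ps and Sprr2g, as pseudogenes. On GRCm38, 45 of the genes lie within 1319 kb of chromosome 3 from 92080271 to 93399442, with Lor at one end and Rptn at the other, and Cnfn lies on chromosome 7 from 25367620 to 25369724.

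RNA of JunB cKO mice, in which a Cre transgene under the keratin 14 promoter deletes floxed JunB in the basal epidermis and its descendants, was compared with RNA of wild type mice by stranded, rRNA-depleted RNA-seq. All groups were of the C57BL/6 strain, and the labels give the genotypes as JunB +/+ and JunB -/-. The 3 comparisons were keratinocytes of unperturbed skin, with 1 library per genotype, skin 4 days after hair plucking, with 1 library per genotype, and wounds at day 30, with 2 libraries per genotype. RNA of 3 samples of a group was pooled before library preparation. Unperturbed skin came from mice of 60 days, and plucked skin from mice plucked on postnatal day 54 and sampled on postnatal day 58. No age is given for the wounded mice in the sources used here. The labels call the unperturbed samples keratinocytes, which were released by trypsin, and give keratinocyte also as the tissue of the plucked samples, although their titles name skin biopsies. The wound table does not separate its libraries. Each gene therefore had 1 value per genotype in every comparison, no replicate error could be calculated and no test was made.

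Expression was measured as FPKM, the number of fragments scaled to transcript length and to the mapped reads of the library. From the steps of whole reads in low FPKM values, the library sizes were estimated at about 16880000 reads for wild type and 4980000 reads for JunB cKO in keratinocytes, 16280000 and 12850000 reads in plucked skin, and 43290000 and 39590000 reads in wounds. In wounds each size belongs to the value of a genotype, which covers 2 libraries, and not to a single library. The read numbers and counting intervals of wounds therefore do not tell the libraries apart. The shallow keratinocyte library of JunB cKO stands apart from the rest. The median FPKM of 1487 sensory receptor genes, which skin is not known to use, was 0.543 in that library and 0 in the wild type library. Although it was the smaller library, fewer genes were listed at 0 in it, 2955 against 8434 in wild type. Low genes thus tended to have raised values in JunB cKO keratinocytes only, and the origin of these values was not tested. Keratinocyte values near 1 FPKM also rest on a few reads. Junb itself was listed at 268 FPKM in wild type against 31.4 in JunB cKO keratinocytes, 40.8 and 11.7 in plucked skin, and 33.4 and 15.4 in wounds. Keratinocyte libraries had little signal of 6 dermal fibroblast genes, with a summed FPKM of 13.7 in wild type against 12.5 in JunB cKO, while the sums were 5109 and 1856 in plucked skin and 10532 and 13412 in wounds. The plucked samples thus held dermal RNA in addition to the keratinocytes named as their tissue.

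Loricrin (Lor), involucrin (Ivl) and the small proline-rich proteins (Sprr) are cross-linked by transglutaminases into a protein shell beneath the plasma membrane of the dying keratinocyte, and the late cornified envelope proteins (Lce) are added near the end of the process. Filaggrin (Flg) is made as a long chain of repeats, stored in keratohyalin granules, and cut into units that bundle keratin filaments and are later broken down to the moisturizing factors of the skin surface. Filaggrin 2 (Flg2), hornerin (Hrnr), repetin (Rptn) and cornulin (Crnn) belong to the same fused-gene family, and most of these genes sit side by side in the epidermal differentiation complex. JunB is a subunit of AP-1, a dimeric factor that binds the letters TGACTCA or TGAGTCA. The pattern TGANTCA used below is wider, as it allows any base in the middle.

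Because the targeted factor binds a known short sequence, the 250 bases before the start of each gene were read from the RefSeq promoter table of GRCm38.p6, in which 42 of the 46 genes matched. Sprr2c-ps, Sprr2g, Sprr2j-ps and Lce1f had no entry. The letters TGANTCA, which read the same on both strands, were found in 15 of the 42 promoters (35.7%) and in 6.75% of 32851 promoters of the same length. TATAAA, searched on the strand of the gene and unable to overlap TGANTCA, was found in 18 of 42 (42.9%) and in 7.59% of all promoters. TGANTCA was present in 7 of 10 Sprr2 promoters, in both Sprr1 promoters, in 4 of 5 filaggrin-type promoters and in Lor and Ivl, and in none of the 20 Lce promoters, nor in those of Sprr3, Sprr4 and Cnfn. The promoters of 8 genes to which the results below refer are shown 5′ to 3′ and end directly before the RefSeq start. They lie at chr3:92083143-92083392 for Lor, chr3:92573736-92573985 for Ivl, chr3:92485882-92486131 for Sprr1a, chr3:92438780-92439029 for Sprr1b, chr3:93019062-93019311 for Lce1m and chr3:92500494-92500743 for Sprr4, all on the minus strand, and at chr3:93273296-93273545 for Flg and chr3:93144539-93144788 for Crnn, both on the plus strand. Capitals mark TGANTCA and TATAAA.
Lor: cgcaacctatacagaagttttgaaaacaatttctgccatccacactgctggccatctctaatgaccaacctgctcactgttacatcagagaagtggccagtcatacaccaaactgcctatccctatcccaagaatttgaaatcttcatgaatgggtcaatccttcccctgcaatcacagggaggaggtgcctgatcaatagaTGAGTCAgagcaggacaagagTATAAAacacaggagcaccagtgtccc
Ivl: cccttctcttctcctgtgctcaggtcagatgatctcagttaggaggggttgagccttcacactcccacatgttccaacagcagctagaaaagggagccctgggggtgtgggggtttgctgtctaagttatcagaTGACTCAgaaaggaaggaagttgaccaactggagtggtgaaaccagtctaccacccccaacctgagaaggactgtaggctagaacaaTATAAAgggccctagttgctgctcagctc
Flg: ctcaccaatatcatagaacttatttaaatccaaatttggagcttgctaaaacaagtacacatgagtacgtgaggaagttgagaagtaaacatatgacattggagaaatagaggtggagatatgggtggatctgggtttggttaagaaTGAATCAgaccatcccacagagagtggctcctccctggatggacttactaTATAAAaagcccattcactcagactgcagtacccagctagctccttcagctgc
Crnn: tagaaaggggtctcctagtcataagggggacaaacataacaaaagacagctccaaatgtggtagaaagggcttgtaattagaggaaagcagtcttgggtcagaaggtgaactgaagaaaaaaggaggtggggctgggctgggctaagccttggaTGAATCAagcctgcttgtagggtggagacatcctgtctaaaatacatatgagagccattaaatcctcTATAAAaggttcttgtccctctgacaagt
Sprr1a: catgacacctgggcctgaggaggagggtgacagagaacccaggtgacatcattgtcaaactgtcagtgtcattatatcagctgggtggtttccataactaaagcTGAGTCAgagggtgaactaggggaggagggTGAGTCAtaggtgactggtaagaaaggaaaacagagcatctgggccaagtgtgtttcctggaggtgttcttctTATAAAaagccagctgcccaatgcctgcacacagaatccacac
Sprr1b: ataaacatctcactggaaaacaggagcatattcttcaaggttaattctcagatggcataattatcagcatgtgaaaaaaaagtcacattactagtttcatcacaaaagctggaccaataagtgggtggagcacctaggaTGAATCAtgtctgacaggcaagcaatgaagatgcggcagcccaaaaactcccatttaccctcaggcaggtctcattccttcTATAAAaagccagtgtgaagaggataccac
Lce1m: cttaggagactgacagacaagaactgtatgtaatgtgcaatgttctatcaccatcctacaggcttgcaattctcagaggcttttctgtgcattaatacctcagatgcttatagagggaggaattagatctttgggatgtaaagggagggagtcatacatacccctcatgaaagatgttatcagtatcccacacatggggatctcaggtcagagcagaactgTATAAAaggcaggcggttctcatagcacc
Sprr4: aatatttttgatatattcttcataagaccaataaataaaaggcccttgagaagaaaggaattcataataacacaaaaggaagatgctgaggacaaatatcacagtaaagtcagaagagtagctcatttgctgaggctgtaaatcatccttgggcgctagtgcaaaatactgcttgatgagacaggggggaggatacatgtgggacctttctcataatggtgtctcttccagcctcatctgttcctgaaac
The TGANTCA match began 48 bases before the start in Lor, 116 in Ivl, 103 in Flg, 96 in Crnn and 111 in Sprr1b, and Sprr1a had matches at 146 and at 116 bases. It read TGAGTCA in Lor and Sprr1a, TGACTCA in Ivl, and TGAATCA in Flg, Crnn and Sprr1b. In Flg, Sprr1a, Sprr1b and Crnn the GENCODE start lies 23, 14, 10 and 2 bases before the RefSeq start, so that the last bases shown belong to the first exon there. Genes with and without the letters held both higher and lower values in JunB cKO. Their median log2 ratio was 0.34 for 15 genes with TGANTCA and 0.29 for 24 without it in keratinocytes, 0.06 for 15 and 0.25 for 27 in plucked skin, and -0.25 for 15 and 0.12 for 25 in wounds. No minimum FPKM was set for these medians. In plucked skin 8 genes with TGANTCA were higher and 3 lower, and without it 16 and 6. The rest were listed at 0 in both genotypes and entered with a ratio of 0. Of the 15 genes with TGANTCA, 7 were weakly expressed Sprr2 genes, so nothing is read from the gap between the medians. A match is a description of these letters and not a site shown to be used.

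The ratio between the genotypes was calculated as log2((JunB cKO + 1)/(wild type + 1)) of the FPKM values, which understates the difference of low genes, and a gene was counted as different at a ratio of at least 1 or at most -1, that is 2-fold. In keratinocytes, 8 of 42 genes were at least 2-fold higher in JunB cKO, where 9.31% of all genes were, and 2 were at least 2-fold lower, where 0.847% were. The higher genes were Lor, Flg, Cnfn, Lce1g, Lce3a, Sprr2b, Sprr2d and Sprr3, and the lower genes Sprr1b and Sprr2g. With a pseudocount of 1 FPKM, any gene past the 2-fold limit has at least 1 FPKM in its higher genotype. The genes named were therefore bound to be among the 33 that reached 1 FPKM in either genotype. At this minimum 15.4% of all genes were higher and 1.4% lower. Among the 16 that reached 10 FPKM, 3 (Lor, Flg and Cnfn) were higher and Sprr1b was lower, where 1.62% of all genes were higher and 1.8% lower. Lce1g, Lce3a, Sprr2b, Sprr2d and Sprr3 had at most 4.45 FPKM in JunB cKO, at low levels where that library had the raised values given above. The median log2 ratio of the 42 genes was 0.34, against 0.13 for all genes. The 11925 genes that reached 1 FPKM in both genotypes had a median of -0.17 on plain FPKM ratios, so that centring on it would raise every plain keratinocyte ratio by that amount.

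In plucked skin, 7 of 46 genes were at least 2-fold higher in JunB cKO, where 6.42% of all genes were, and 5 were at least 2-fold lower, where 5.62% were. Crnn, Cnfn, Sprr2a3, Sprr2d, Sprr2j-ps, Lce3b and Lce3c were the higher genes, and Sprr1a, Sprr4, Sprr2b, Lce1e and Lce3f the lower genes. Of the 46 genes, 34 reached an FPKM of 1 and 11 were listed at 0 in both genotypes. With that minimum, 18.2% of all genes were higher and 16% lower, so the genes' counts lay near those of the whole table. At a minimum of 10 FPKM, 3 of 27 genes (Crnn, Cnfn and Sprr2a3) were higher and 3 (Sprr1a, Sprr4 and Lce1e) lower, where 13.1% and 12.3% of all genes were. The median log2 ratio was 0.20, the JunB cKO value being higher for 26 genes and lower for 9 at any size of difference. Of all genes, 9917 were higher and 9122 lower. In these bulk samples, fewer cells of a type and less RNA per cell cannot be told apart.

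In wounds, 4 of 44 genes were at least 2-fold higher in JunB cKO, namely Sprr2a3, Sprr2d, Lce1f and Lce1h, where 2.14% of all genes were. Sprr2h, Sprr4 and Ivl were at least 2-fold lower, where 1.97% of all genes were. At least 1 FPKM was reached by 31 of the genes, and at this minimum 5.69% of all genes were higher and 5.23% lower. At 10 FPKM, 1 of 24 genes (Lce1f) was higher and 2 (Sprr4 and Ivl) were lower, where 4.09% and 3.38% of all genes were. The median log2 ratio was 0.00, with 21 genes higher and 18 lower, where 12396 of all genes were higher and 13353 lower.

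**Figure D1:**
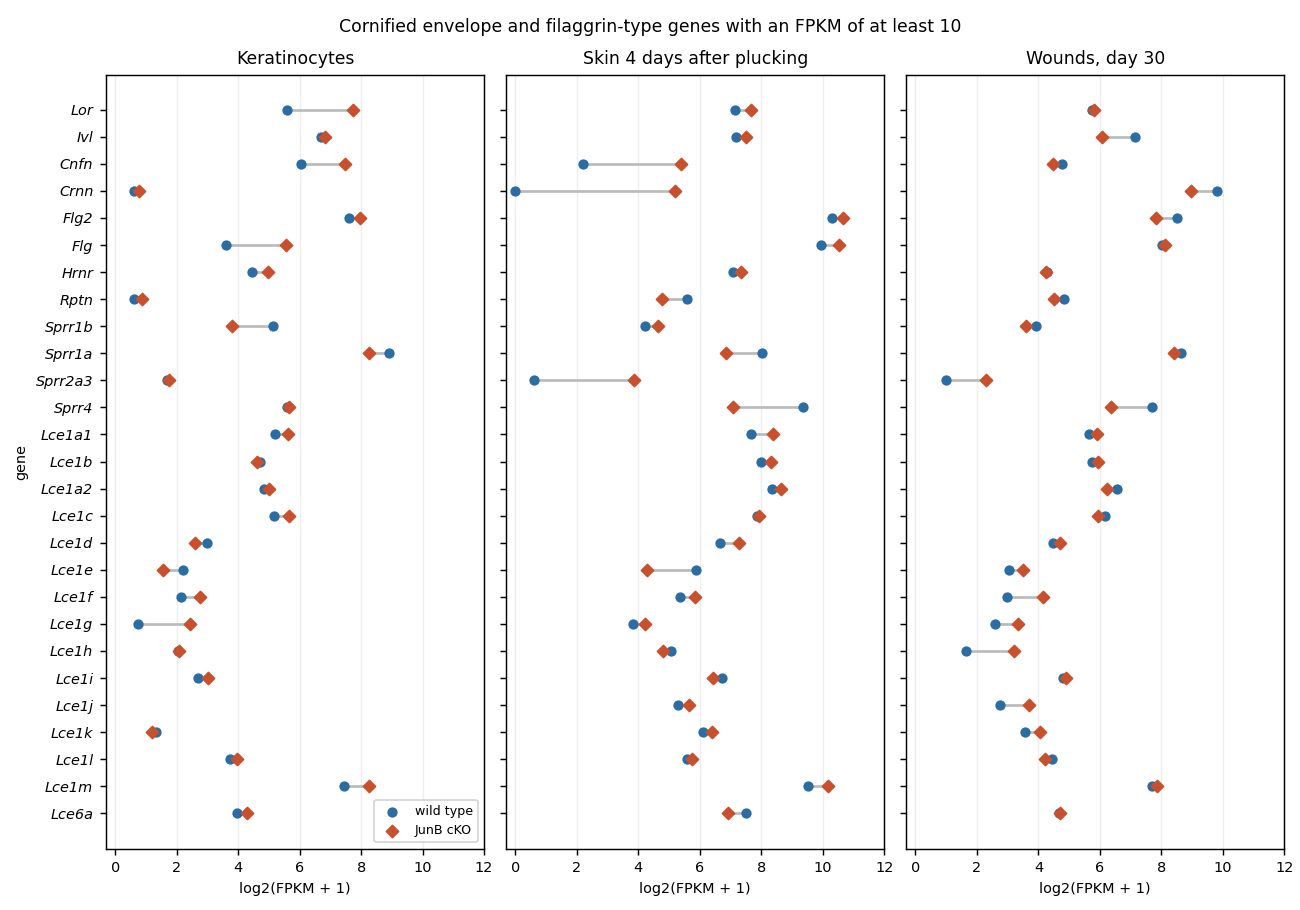
Levels of the 27 genes that reached an FPKM of 10 in any comparison, drawn as log2(FPKM + 1) on the x axis, with one gene per line, wild type as circles and JunB cKO as diamonds. The widest gaps are those of Lor and Flg in keratinocytes (47.0 against 213 and 11.3 against 46.1 FPKM) and of Crnn, Sprr2a3, Cnfn and Sprr4 in plucked skin.

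Of Lor, Ivl and Cnfn, Lor and Cnfn were at least 2-fold higher in JunB cKO keratinocytes, and neither was 2-fold different in wounds. Lor (ENSMUSG00000043165.7), which encodes the main protein of the envelope, was listed at 47.0 FPKM in wild type against 213 in JunB cKO keratinocytes. This is a 4.54-fold higher level, with a 95% counting interval from 4.22 to 4.89, estimated from about 1253 and 1677 reads. Such intervals are exact binomial (Clopper-Pearson) intervals that cover the counting of reads only, not the spread between mice, and reads without molecular identifiers are not independent molecules. In plucked skin Lor was at 139 FPKM in wild type against 203 in JunB cKO, 1.46-fold higher, and in wounds at 52.9 and 55.6. Levels in the different tables were normalized separately and are only set side by side here.

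Cnfn (cornifelin, ENSMUSG00000063651.11), an envelope protein encoded outside the gene cluster, was at 65.3 FPKM in wild type against 177 in JunB cKO keratinocytes, 2.71-fold higher. In plucked skin it was at 3.61 and 41.3, 11.5-fold higher, and in wounds at 26.1 and 21.3. The hair genes described below differed between the genotypes of plucked skin in the same direction. Ivl (ENSMUSG00000049128.7), an early scaffold of the envelope, had about the same level in both genotypes of keratinocytes, with 103 FPKM in wild type against 113 in JunB cKO. It was at 144 and 180 in plucked skin. In wounds the order turned, with 139 FPKM in wild type against 65.7 in JunB cKO, 2.11-fold lower, from about 10358 and 4481 reads. Lor and Ivl thus parted in wounds, where Lor had nearly the same FPKM in both genotypes.

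Flg (ENSMUSG00000102439.4) was listed at 11.3 FPKM in wild type against 46.1 in JunB cKO keratinocytes, a 4.09-fold higher level. In plucked skin it was at 991 FPKM in wild type against 1487 in JunB cKO, 1.501-fold higher. In wounds it was at 261 and 279. The wound table splits Flg, whose exon holds near-identical repeats, into 8 loci, and the locus with the most FPKM is given here. Of the other 7 loci, the largest was at 68.9 FPKM in wild type against 104 in JunB cKO.

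Flg2 and Hrnr, which carry similar repeats and are made in the same granular layer, had ratios closer to 1 than Flg in keratinocytes and plucked skin, but in wounds Flg2 differed more than Flg. Flg2 was at 195 FPKM in wild type against 247 in JunB cKO keratinocytes, and at 1260 and 1618 in plucked skin. It had the lower value in JunB cKO only in wounds, with 360 in wild type against 224 in JunB cKO, 1.61-fold lower. Hrnr was at 20.7 and 30.5 FPKM in keratinocytes, 135 and 160 in plucked skin, and 18.5 and 18.1 in wounds. Flg, Flg2 and Hrnr all had a higher FPKM in JunB cKO in keratinocytes and plucked skin, whereas in wounds their log2 ratios ran from -0.68 to 0.10.

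Crnn (ENSMUSG00000078657.6) and Rptn had little expression in keratinocytes. Crnn, best known from the oesophagus, was listed there with 0.539 FPKM in wild type against 0.703 in JunB cKO. In plucked skin it was listed at 0 in wild type against 35.7 in JunB cKO, the highest log2 ratio of any of the genes (5.20). In wounds it was the most abundant of all the genes, with 900 FPKM in wild type against 494 in JunB cKO, 1.82-fold lower. Rptn, another granule protein, was at 0.540 and 0.813 FPKM in keratinocytes, 47.1 and 26.3 in plucked skin, and 27.2 and 21.7 in wounds. It was thus 1.79-fold lower in JunB cKO in plucked skin, where Crnn was higher. In the plucked and wound tables Rptn and Hrnr share 1 locus interval.

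In plucked skin and in wounds, Crnn differed between the genotypes in the same direction as hair genes, each time by 1 value per genotype. In keratinocytes, where Crnn was below 1 FPKM in both genotypes, it did not. The summed FPKM of 10 hair follicle genes, mostly keratins of the hair shaft and inner root sheath, was 41.6 in wild type against 32.1 in JunB cKO keratinocytes, 38.7 and 359 in plucked skin, and 4480 and 3236 in wounds. In plucked skin 9 of these 10 genes were at least 2-fold higher in JunB cKO, and Krt31, Krt33a and Krt35 were listed at 0 in wild type. In wounds all 10 were lower in JunB cKO, none of them 2-fold. Tchh, trichohyalin of the inner root sheath and a fused gene of the filaggrin type that was not among the genes chosen, was at 6.61 and 5.21 FPKM in keratinocytes, 22.3 and 241 in plucked skin, and 1945 and 882 in wounds. Rptn did not show this pattern, with a lower value in JunB cKO in both tissues. The part of hair follicle RNA in the Crnn and Cnfn values was not tested.

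**Figure D2:**
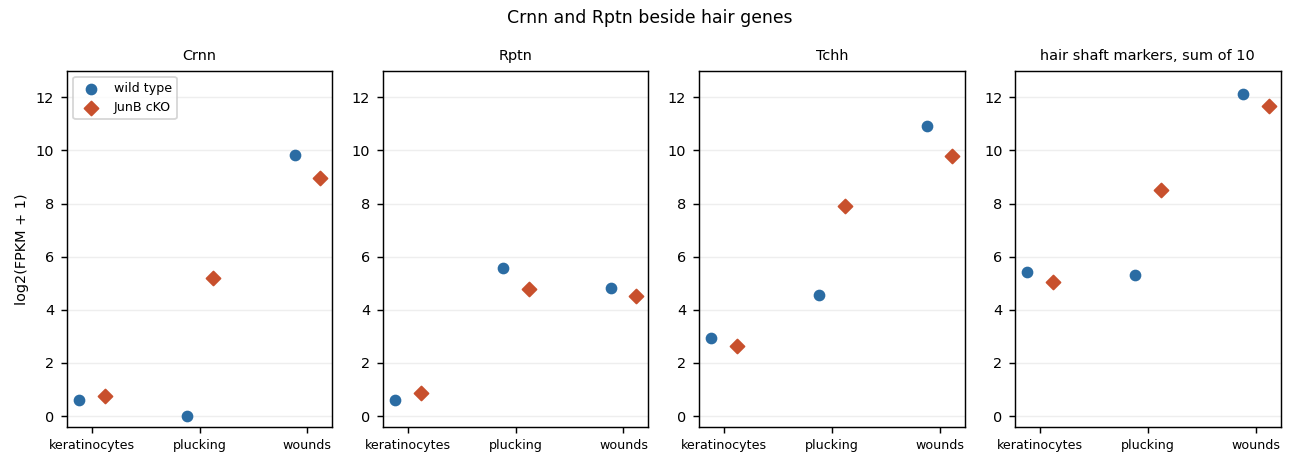
Crnn and Rptn beside Tchh and the sum of 10 hair follicle genes, as log2(FPKM + 1) on the y axis for each comparison, with circles for wild type and diamonds for JunB cKO. Crnn, Tchh and the hair sum are higher in JunB cKO after plucking and lower in wounds, and Rptn is lower in both.

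Sprr1a (ENSMUSG00000050359.7), a proline-rich envelope protein that is induced by stress, was the only gene reaching 1 FPKM in all tables that was lower in JunB cKO in every comparison. It was listed at 477 FPKM in wild type against 305 in JunB cKO keratinocytes, where it was the most abundant of the genes in both genotypes. This is 1.56-fold lower, and the interval of the ratio of JunB cKO to wild type ran from 0.595 to 0.686. In plucked skin Sprr1a was at 258 and 113, 2.28-fold lower, from about 2547 and 884 reads. In wounds it was at 399 and 336, 1.19-fold lower. Its neighbour Sprr1b was at 33.8 FPKM in wild type against 12.96 in JunB cKO keratinocytes, 2.61-fold lower, at 17.7 and 23.7 in plucked skin, and at 13.98 and 10.97 in wounds. The Sprr1 pair therefore was lower in JunB cKO in keratinocytes and wounds and split in plucked skin.

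Sprr4 (ENSMUSG00000045566.1), a member that has been linked to the response of skin to ultraviolet light, was lower in JunB cKO in both tissues. It was at 654 FPKM in wild type against 134 in JunB cKO in plucked skin, 4.90-fold lower, with an interval of the ratio from 0.162 to 0.258, estimated from about 537 and 87 reads. In wounds it was at 206 and 81.7, 2.52-fold lower, with an interval from 0.330 to 0.476. Keratinocytes had 47.4 FPKM in wild type against 49.5 in JunB cKO. The annotated transcript of Sprr4 is only 231 bases long and its effective length, the number of positions at which a fragment can start, was about 50.4 bases. This length follows from the assumed fragments of 200 bases (SD 80), and the read numbers and intervals of Sprr4 rest on it. Its FPKM therefore cannot be set beside the levels of other genes. Neither TGANTCA nor TATAAA is in its promoter shown above.

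The Sprr2 genes were weakly expressed in every table, and most of their differences rest on a few reads. In keratinocytes the highest level was that of Sprr2g, a polymorphic pseudogene in GENCODE, with 9.06 FPKM in wild type against 3.12 in JunB cKO, and the next was Sprr2h, with 4.83 and 3.27. Sprr2b was listed at 0 and 1.21, about 4 reads, and Sprr2d at 0.616 and 2.51, about 5 and 6 reads. In plucked skin Sprr2a3 was at 0.510 in wild type against 13.4 in JunB cKO, and 7 of the 13 genes were listed at 0 in both genotypes. Sprr2d was listed at 0 and 2.59 there and at 0 and 1.56 in wounds, about 16 and 30 reads in JunB cKO. Sprr2a3 was at 1.01 and 3.93 in wounds, in the same direction as in plucked skin. Sprr2h was at 8.39 FPKM in wild type against 1.68 in JunB cKO in wounds, a log2 ratio of -1.81, and at 3.34 and 3.52 in plucked skin. Sprr2j-ps, named here after its value was seen, was listed at 0 and 2.44 in plucked skin. Sprr3, a protein of the oral lining and oesophagus, was listed at 0 in both genotypes of both tissues and at 0 and 1.18 in keratinocytes, about 6 reads.

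Reads of Sprr2 genes can be hard to assign. Of the 75-base words in the transcripts, 94.3% for Sprr2a1 and 94.7% for Sprr2a2 also occur in another gene, and 47.5% for Sprr2a3. Sprr2a1 and Sprr2a2 had at most 0.387 FPKM in any library, and the Sprr2a3 values are uncertain for the same reason. The share was at most 6.08% in the other Sprr2 genes, 13.5% in Lce1 and 45.6% in Lce3 genes, and 0 in Lor, Ivl, Cnfn, the Sprr1 pair, Sprr3, Sprr4, Lce1m, Lce6a and the filaggrin-type genes. The repeats within Flg, Flg2 and Hrnr are not counted by this share.

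**Figure D3:**
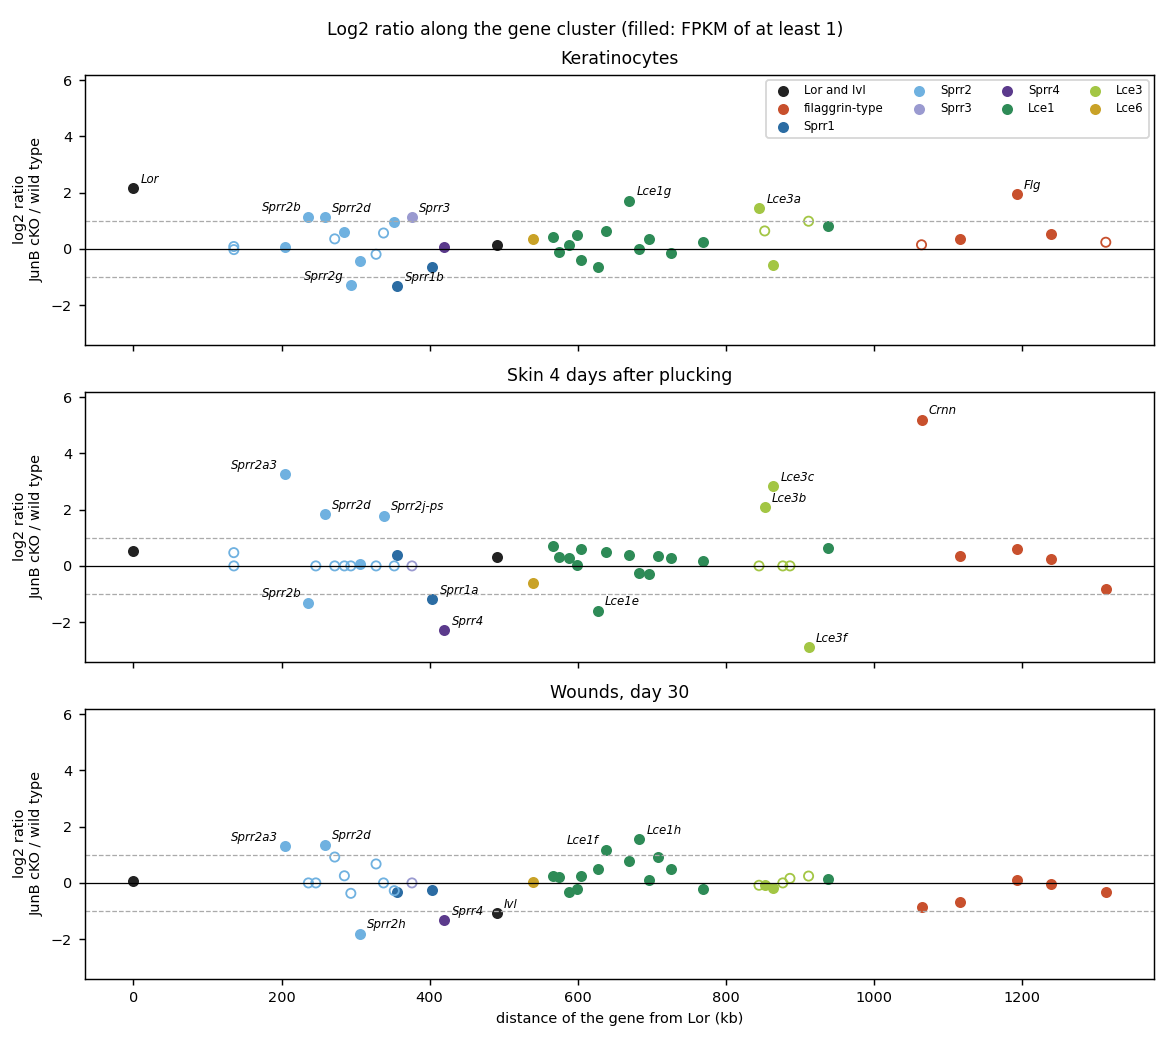
Log2 ratio of JunB cKO over wild type of each gene of the cluster on the y axis against the distance of the gene from Lor in kb on the x axis, in one panel per comparison, with filled points for genes that reached 1 FPKM in either genotype and dashed lines at 2-fold. Neighbouring genes can lie on opposite sides of 0, as Sprr2a3 and Sprr2b do in plucked skin, and the Lce1 points stay within the dashed lines apart from Lce1g in keratinocytes, Lce1e in plucked skin and Lce1f and Lce1h in wounds.

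The Lce1 genes, whose cysteine- and glycine-rich proteins are laid on the envelope last, had more members with a higher than with a lower value in JunB cKO in every comparison. In keratinocytes the JunB cKO value was higher for 9 of 13 and lower for 4, the median log2 ratio being 0.23, and in plucked skin and in wounds 11 of 14 were higher and 3 lower, with medians of 0.32 and 0.25. Each of them reached 1 FPKM. Of all genes at this minimum, 7492 were higher and 8388 lower in keratinocytes, 8307 and 7912 in plucked skin, and 8921 and 8425 in wounds. Lce1 genes are neighbours with shared words, so that their counts are not of independent genes. Lce1m (ENSMUSG00000027912.8) had the most FPKM of the family throughout and is the Lce1 gene nearest to the filaggrin-type genes on the chromosome. It was at 171 FPKM in wild type against 303 in JunB cKO keratinocytes, 738 and 1141 in plucked skin, and 208 and 229 in wounds. The ratio was 1.77, 1.55 and 1.10, respectively.

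Single Lce1 genes stood out from this range in each comparison. In keratinocytes Lce1g was at 0.656 FPKM in wild type against 4.45 in JunB cKO, from about 8 and 16 reads, and Lce1e, with the lowest ratio, was at 3.59 and 1.96. In plucked skin Lce1e was at 57.4 and 18.4, 3.12-fold lower, with an interval of the ratio from 0.260 to 0.391, whereas Lce1a1 was at 202 and 332, 1.64-fold higher. In wounds Lce1h was at 2.14 and 8.22, 3.83-fold higher, and Lce1f at 6.80 and 16.7, 2.46-fold higher. Lce1a2 had the lowest ratio in wounds, with 92.8 FPKM in wild type against 73.5 in JunB cKO. None of these genes was at least 2-fold different in the same direction in more than 1 comparison.

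Levels of the other Lce1 genes can be given by their range. In keratinocytes Lce1a1, Lce1a2, Lce1b, Lce1c and Lce1l were between 12.2 and 35.4 FPKM in wild type and between 14.5 and 49.8 in JunB cKO, with the highest ratio for Lce1c (34.8 and 49.8 FPKM) and the lowest for Lce1b (25.3 and 23.4). Plucked skin had Lce1a2 at 328 and 396 FPKM, Lce1b at 253 and 320, Lce1c at 233 and 240, Lce1i at 104 and 84.2, and Lce1d at 101 and 155. All of these genes except Lce1i were higher in JunB cKO. Lce1f, Lce1g, Lce1h, Lce1j, Lce1k and Lce1l lay between 13.1 and 68.3 FPKM in wild type plucked skin, with log2 ratios from -0.24 (Lce1h) to 0.50 (Lce1f). In wounds Lce1j was at 5.80 FPKM in wild type against 11.96 in JunB cKO, Lce1g at 4.95 and 9.12, Lce1e at 7.18 and 10.4, and Lce1k at 10.8 and 15.7. Lce1a1, Lce1b, Lce1d and Lce1i were 1.09- to 1.20-fold higher there, and Lce1c and Lce1l were 1.18- and 1.16-fold lower. In wounds the 4 Lce1 genes with the lowest wild type levels also had the 4 highest ratios. The same single wild type value enters both the level and the ratio, so nothing is read from this order.

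Lce6a, a single gene between Ivl and the Lce1 block, was at 14.5 FPKM in wild type against 18.7 in JunB cKO keratinocytes, 182 and 120 in plucked skin, and 24.2 and 24.8 in wounds. It was 1.53-fold lower in JunB cKO in plucked skin, where most Lce1 genes were higher. Lce3 genes, which are known from injured and psoriatic skin, were scarce. Lce3c was at 1.30 and 0.552 FPKM in keratinocytes, listed at 0 and 6.15 in plucked skin, about 29 reads in JunB cKO, and at 9.13 and 7.94 in wounds. Lce3f was listed at 6.43 and 0 in plucked skin, the reverse of Lce3c, and 27.2% of the words of Lce3c occur in Lce3f. Lce3a was listed at 0 and 1.73 FPKM in keratinocytes, about 3 reads. Lce3b was listed at 0 and 3.23 FPKM in plucked skin and at 1.65 and 1.54 in wounds.

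**Figure D4:**
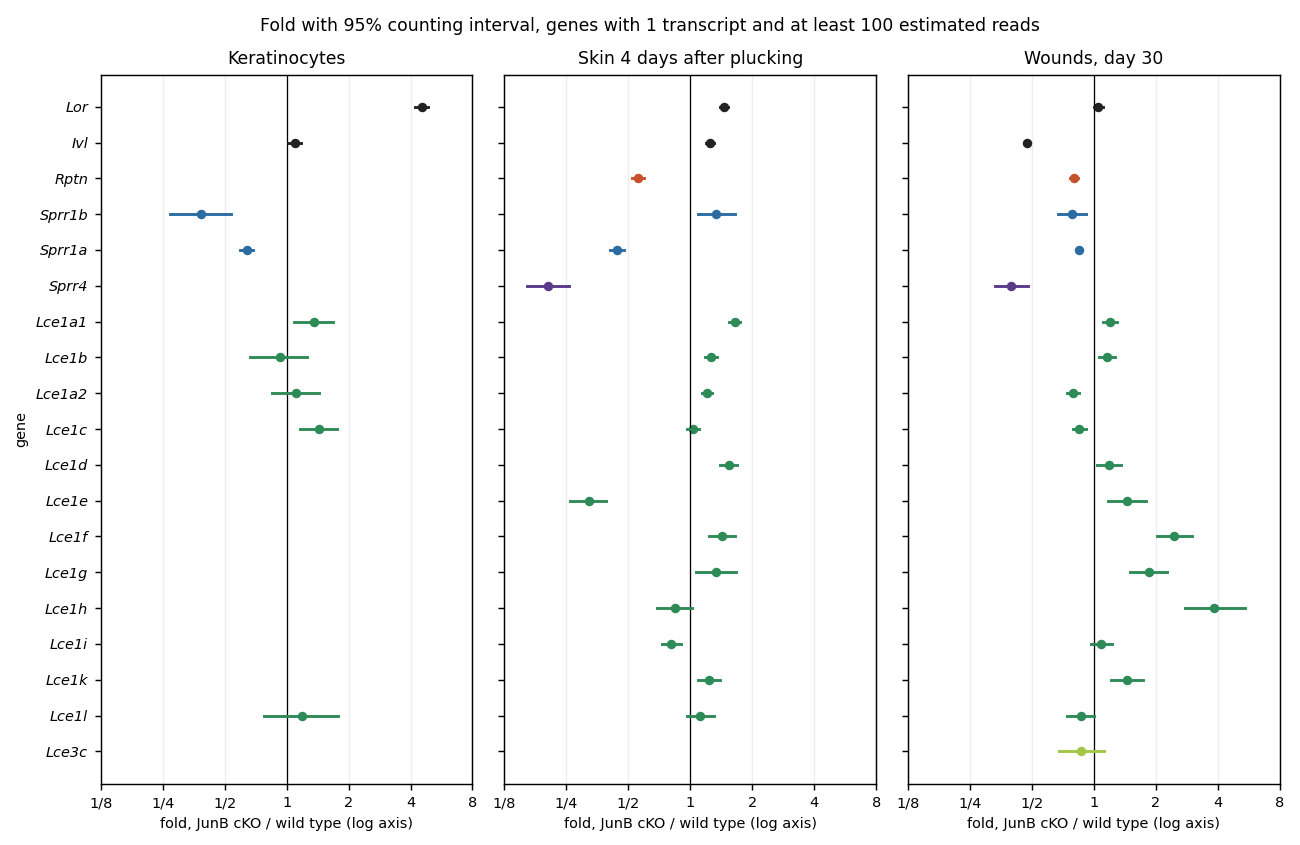
Fold of JunB cKO over wild type on a log axis for genes with 1 annotated transcript and at least 100 estimated reads over both genotypes, with bars for the 95% counting interval, which does not cover the spread between mice. Lor lies far above 1 in keratinocytes, Sprr1a lies below 1 in all panels, Sprr4 lies below 1 in both tissues, and Ivl lies above 1 in plucked skin and below 1 in wounds.

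Counting intervals were calculated for genes with 1 annotated transcript and at least 10 estimated reads over both genotypes. In keratinocytes the interval lay above 1 for 6 of 21 such genes, where it did for 43.5% of all genes with 1 transcript and that many reads, below 1 for 2 (Sprr1a and Sprr1b), where it did for 12.7%, and included 1 for 13. In plucked skin it lay above 1 for 15 of 25 genes and below 1 for 7, against 44.2% and 36.3% of all such genes. In wounds it lay above 1 for 12 of 25 genes and below 1 for 8, against 31.4% and 31.7%. Many genes of each table thus had an interval on one side of 1, and nothing particular to the envelope genes is read from these counts. The share of genes whose interval included 1 was largest in keratinocytes, where the shallow library was. Flg, Flg2, Hrnr, Crnn, Cnfn and Lce1m have several annotated transcripts, so no interval is given for them.

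Added up, the 42 genes held 1369 FPKM in wild type against 1737 in JunB cKO keratinocytes, the 46 genes 6100.2 and 7148 in plucked skin, and the 44 genes 3028 and 2279 in wounds. In keratinocytes the make-up of this sum differed. Lor, Ivl and Cnfn together made up 15.8% of it in wild type against 29.0% in JunB cKO, and Sprr1a and Sprr1b 37.3% and 18.3%. Lce1 genes made up 24.2% and 28.7%. In plucked skin the filaggrin-type genes made up 39.9% in wild type against 46.6% in JunB cKO, and the Lce1 genes 37.0% and 41.6%. Their summed FPKM was 2433 and 3328 for the filaggrin-type genes and 2256 and 2974 for Lce1. Sprr4, whose FPKM cannot be set beside that of other genes, made up 10.7% and 1.87% of the same sum. The larger shares of the other families in JunB cKO therefore depend in part on Sprr4. Without Sprr4, the sum in plucked skin was 5446 FPKM in wild type against 7015 in JunB cKO. In wounds the filaggrin-type sum was 1566 in wild type against 1037 in JunB cKO, and most of this gap came from Crnn, since the other 4 genes summed to 667 and 543. Without Crnn and Sprr4, the sum of all genes in wounds was 1922 FPKM in wild type against 1703 in JunB cKO, and in plucked skin 5446 and 6979.

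**Figure D5:**
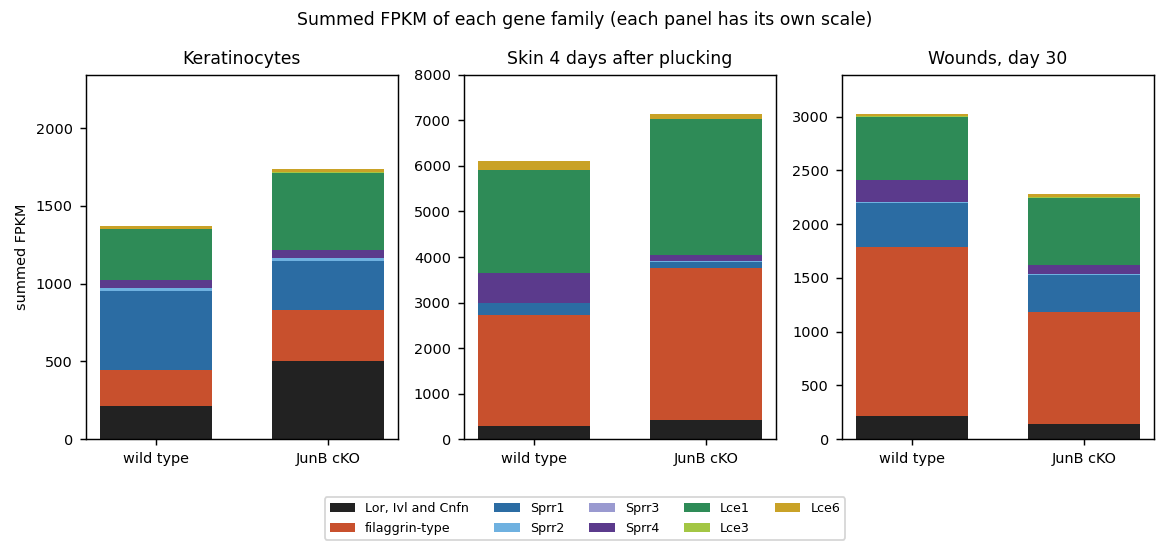
Summed FPKM of each gene family as stacked bars for wild type and JunB cKO, in one panel per comparison with its own scale. The part of Lor, Ivl and Cnfn is larger and that of Sprr1 smaller in JunB cKO keratinocytes, the total is higher in JunB cKO in plucked skin (6100.2 and 7148 FPKM), and it is lower in JunB cKO in wounds (3028 and 2279 FPKM).

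Cell type markers also differed between the genotypes of plucked skin, not all in the direction of the envelope sum. All 6 dermal fibroblast genes were lower in JunB cKO, 3 of them at least 2-fold, with the sums given above. Of 6 leukocyte genes 4 were at least 2-fold lower, and their sum was 390 in wild type against 172 in JunB cKO. Of 5 measured skeletal muscle genes all were at least 2-fold lower, with a sum of 199.8 and 25.04, and Mb was listed at 0 in JunB cKO. Of 6 adipocyte genes 4 were lower and 2 higher, with a sum of 147 and 52.2, and Retn was listed at 0 in wild type. The suprabasal keratinocyte markers summed to 8319.7 and 11587 FPKM, with Krt10 at 2004 and 3685, and Krt2 was listed at 0 in JunB cKO. Of these 10 markers 6 were higher and 4 lower, none of them 2-fold, and the median log2 ratio was 0.15. The 8 basal markers summed to 5339 and 5045, with Krt14 at 2446 and 1709, although 6 of the 8 were higher in JunB cKO, Col17a1 and Itgb4 at least 2-fold, and their median log2 ratio was 0.36. In wounds, fibroblast genes summed to 10532 in wild type against 13412 in JunB cKO and the suprabasal markers to 3570.3 and 3907, where Krt2 was again listed at 0 in JunB cKO. That suprabasal sum was carried by Krt10 and Krt1, since 7 of the 10 markers were lower in JunB cKO and their median log2 ratio was -0.29. What the share of epidermis in the samples adds to the values of the envelope genes was not tested.

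The comparisons share no library, and the genes had no common direction across them. A minimum of 1 FPKM in either genotype was reached in all tables by 27 genes. Of these, 8 were higher in JunB cKO in every comparison (Lor, Flg, Sprr2a3, Sprr2d, Lce1a1, Lce1f, Lce1g and Lce1m). Sprr1a was lower in every one, and 18 were mixed. Of all 10791 genes that reached the same minimum in every table, 9.21% were higher in every comparison and 16.1% were lower. Sprr2d passed the minimum only through its JunB cKO value in every table. The same held for Sprr2a3 in plucked skin and for Lce1g in keratinocytes. Their direction there was set by the minimum, so nothing is read from the count of 8 beside the share of all genes. Keratinocytes and plucked skin had the same sign for 17 of 28 genes, keratinocytes and wounds for 15 of 27, and plucked skin and wounds for 15 of 31. Across genes, Pearson's r of the log2 ratios was 0.18, 0.23 and 0.10 and Spearman's rho 0.28, 0.19 and 0.20 in the same order, given as descriptions, as genes of a cluster are not independent.

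Genes that act on the same proteins were taken from fixed lists. Of 6 genes of envelope cross-linking and its lipid scaffold none was 2-fold different in keratinocytes or plucked skin and 1 (Tgm3) was lower in wounds. Tgm1, the main transglutaminase of the granular layer, was at 23.3 FPKM in wild type against 31.6 in JunB cKO keratinocytes, 27.2 and 38.7 in plucked skin, and 24.5 and 22.9 in wounds. Alox12b, a lipoxygenase of the lipid envelope, was at 23.6 and 32.5, 20.5 and 36.0, and 6.35 and 6.46, respectively. Tgm5 was at 30.8 and 24.3, 22.8 and 22.1, and 11.9 and 12.2 in the same order. At any size of difference, 3 of the 6 genes were higher in JunB cKO and 3 lower in keratinocytes, 5 and 1 in plucked skin, and 2 and 4 in wounds. Of 10 genes of filaggrin processing and of the proteases that shed squames, 1 was at least 2-fold higher in keratinocytes, 2 were in plucked skin and none was different in wounds, where 9 of 10 had the lower value in JunB cKO. Asprv1, the protease that cuts profilaggrin, was at 237 and 259 FPKM in keratinocytes, 646 and 507 in plucked skin, and 203 and 173 in wounds. Spink5, which encodes the inhibitor of the kallikreins, was at 178 and 202, 381 and 475, and 182 and 156. Casp14, the protease that helps to break filaggrin down, was 2-fold higher in keratinocytes and plucked skin and is named here after its values were seen. It was at 48.5 FPKM in wild type against 124.95 in JunB cKO keratinocytes, 34.9 and 79.7 in plucked skin, and 17.5 and 28.8 in wounds. The other 2-fold higher gene of this list in plucked skin was Padi3, a peptidylarginine deiminase, at 0.704 and 5.65 FPKM.

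Of 14 other envelope precursors and genes of the same chromosomal complex, 1 of 13 measured (S100a11) was at least 2-fold higher in keratinocytes, 2 of 14 (Tchh and Tchhl1) were higher in plucked skin, and 1 of 14, Tchh, was lower in wounds. At any size of difference, 7 of them were higher in JunB cKO and 6 lower in keratinocytes, 10 and 4 in plucked skin, and 4 and 10 in wounds. Krtdap, a small secreted protein of differentiating keratinocytes, was at 5447 FPKM in wild type against 6695 in JunB cKO keratinocytes, 9223 and 10699.8 in plucked skin, and 2158 and 2711 in wounds. Anxa1 was lower in JunB cKO in every comparison, at 591 and 412, 571 and 498, and 566 and 502 FPKM, respectively. Of 15 transcription factors known to regulate envelope genes, 14 of them measured in the tissues, none was 2-fold different in any comparison. Klf4, which is needed for the skin barrier, was at 219 and 173 FPKM in keratinocytes, 77.1 and 90.5 in plucked skin, and 45.1 and 36.0 in wounds. Zfp750 was at 98.8 and 97.1, 33.3 and 44.6, and 26.3 and 27.1, respectively. The 4 keratins of wounded epidermis had no common direction. Krt6b was at least 2-fold higher in every comparison, with 1.95 against 9.65 FPKM in keratinocytes, 7.90 against 59.2 in plucked skin, and 3.44 against 17.3 in wounds. Krt16 was 2-fold lower in keratinocytes, with 62.0 against 23.8 FPKM, and Krt6a was 2-fold lower in plucked skin, with 226 against 66.2, where the sum of the 4 keratins was 1334 against 795.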

How the data were processed

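Total RNA was depleted of rRNA, made into TruSeq stranded libraries and sequenced as single reads of 75 bases. The authors trimmed and filtered the reads, mapped them to GRCm38 with TopHat 2.1.0 and HISAT2, and assembled and compared them with Cufflinks 2.2.1 and Cuffdiff. The deposited tables hold 1 FPKM value per genotype and locus, normalized within each table, together with the authors' log2 fold changes, test statistics, p-values, q-values and significance flags, which were not used. Each table names its genotypes, as WT with KO or as Co with Mut. The condition of the plucked and wound tables is given only by their names. The tables use different gene models, since both ends of 34 of 42 loci matched RefSeq in keratinocytes and those of 39 of 46 and 41 of 44 matched GENCODE M21 in plucked skin and wounds.

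Where a symbol had more than 1 locus, that of the highest FPKM over both genotypes was taken, and loci with no or several symbols were left out. Log2 ratios were calculated with a pseudocount of 1 FPKM. Library sizes were estimated from the steps of FPKM between loci, with the effective lengths of Cufflinks for fragments of 200 bases (SD 80). Of 50 values under 30 reads, 40 (80%) fell within 0.1 of a whole read, so that read numbers are estimates. Counting intervals (95%) were taken for genes with 1 transcript in GENCODE M21. The steps were tested on simulated data. Genes named in the text were Lor, Ivl, Flg, Flg2, Hrnr, Rptn, Crnn and Cnfn, every Lce or Sprr gene with an FPKM of at least 10, in each table and subfamily the genes with the highest and the lowest ratio at an FPKM of at least 1, the 4 most abundant genes of each other list, of which those that bear on a result are given, and Junb. The genes and lists were chosen with earlier results of these data known. Alternatives were pseudocounts of 0.1 and 0.01, minimum FPKM values, centred ratios, summed loci and a 1.5-fold limit. Python 3.11.15, pandas 2.3.3, numpy 2.4.6, scipy and matplotlib were used.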

Additional observations from a re-analysis of the deposited data

Results flagged for a closer look

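Sprr2b was the only gene that was at least 2-fold different in opposite directions in separate comparisons. Its log2 ratio of JunB cKO over wild type was 1.14 in keratinocytes, from 0 to 1.21 FPKM, and -1.31 in plucked skin, from 1.47 to 0 FPKM. The read numbers behind these values were about 4 in JunB cKO keratinocytes and 14 in wild type plucked skin, and the genotype with fewer reads was listed at 0 each time. The difference between the comparisons was not tested, as each rests on 1 value per genotype.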

How the results depend on the processing

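No paired analysis was possible because the wound table gives 1 value per genotype and does not separate the numbered libraries, and for the same reason no fit without 1 replicate was run. Counts of genes at least 2-fold higher and lower in JunB cKO depended on the treatment of low values. In keratinocytes they were 8 and 2 as reported, 13 and 4 with a pseudocount of 0.1, 14 and 5 with 0.01, 14 and 4 at a 1.5-fold limit, and 3 and 1 with a minimum of 10 FPKM. A minimum of 10 estimated reads also gave 3 and 1, but it kept only genes with 1 transcript. Its higher genes were Lor, Sprr2d and Lce1g, as Flg and Cnfn have several transcripts and no read estimate. In plucked skin they were 7 and 5 as reported, 3 and 3 at 10 FPKM, 4 higher at 10 reads and 11 higher at 1.5-fold. The 4 were Sprr2d, Sprr2j-ps, Lce3b and Lce3c, and Crnn, Cnfn and Sprr2a3 were left out there for want of a read estimate. In wounds they were 4 and 3 as reported, 8 higher with either pseudocount, 5 lower with 0.01, 8 and 5 at 1.5-fold, and 1 higher at 10 FPKM. The minima of 10 FPKM and 10 reads, and leaving out genes with at least 50% of shared words, were chosen after seeing the data. The share of all genes past the limit is not given for the other pseudocounts, the 1.5-fold limit and the minimum of 10 reads. Counts under these settings show only how the count moved, and nothing particular to the envelope genes is read from them. The median log2 ratio stayed between 0.23 and 0.50 in keratinocytes, 0.20 and 0.34 in plucked skin, and -0.01 and 0.16 in wounds. Ratios of single genes were followed only for the 27 genes that reached 10 FPKM in a comparison. Of these 80 ratios, 78 kept their sign after centring, and no ratio past 2-fold reversed. A pseudocount cannot change the sign of a ratio, but 3 ratios moved by more than 1.5-fold with 0.1 and 4 with 0.01. Summing loci changed only the ratio of Flg in wounds, from 0.10 to 0.30. The shallow JunB cKO keratinocyte library, in which low genes had raised values, limits every keratinocyte value near 1 FPKM.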
